A study of Saccharomyces cerevisiae with 36 samples.

Results

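The untreated control cultures of a pesticide study of budding yeast are described here. They are the 18 of 36 arrays whose titles name a culture without pesticide, and they fall into 6 groups of 3 biological replicates. All cultures were of BY4741, a haploid of mating type a widely used in the laboratory, with deletions of HIS3, LEU2, MET15 (now named MET17) and URA3. Exponential cells were kept for 2 h at 30 °C in minimal medium of pH 6.5. Each group was the control of 1 experiment, run beside cultures that received a partly inhibitory dose (the IC20) of alachlor, carbofuran, diuron, MCPA-ME, pyrimethanil or S-metolachlor, and each control is named below by the pesticide of its experiment although it received none. The 6 groups have the same labels in every other respect, so any difference between them separates experiments, and the experiment, its cultures, its medium and its handling of RNA cannot be told apart.

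A yeast cell growing on glucose spends most of its transcription on ribosomes and on glycolysis. When nutrients run short, the medium acidifies or the cell is stressed, the transcription factors Msn2 and Msn4 turn on a broad set of stress genes, and the genes that build ribosomes are turned down. Other sets follow single nutrients: Gcn4 controls amino acid synthesis, Met4 controls sulfur assimilation, and Aft1 controls iron uptake. Genes of DNA replication are transcribed in late G1 and genes of mitosis later, so their level in a culture depends on how many cells are in each phase.

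The strain and mating type markers were read first. URA3 (orotidine phosphate decarboxylase) ran from 7.06 to 24.4 intensity units over the 18 arrays and MET17 (homocysteine synthase) stayed under 40.4, whereas the median array intensity lay between 1358 and 1483. LEU2 was also dim, at 77.7 to 195. HIS3 read 4142 to 11322, and whether its probe set lies inside the deleted stretch is not known here, so it checks nothing. The a-factor gene MFA1 was bright on every array (13439 to 19122), while STE3, the receptor gene that marks alpha cells, lay at 63.9 to 152. Another alpha gene, MF(ALPHA)2, was 2.35-fold higher on MCPA-ME control array 1 than the mean of the other MCPA-ME arrays. Among defining genes of sporulating cells, SPO11, the meiotic nuclease, was dim at 104 to 199, as was SPO13, a meiosis I regulator, at 36.1 to 83.0. SPS1, a kinase on the same marker list, was not dim in every group, and its values are given with the carbofuran controls. Other genes of meiosis and sporulation were not all level. The MCPA-ME arrays lay above all others for IME1. The group means of SPR3 and DIT1 spanned 1.48 and 1.11 on the log2 scale. SPO11 and SPO13 therefore do not stand for the whole class. Intensities under a floor of 32 were raised to 32 before log2 was taken, which touched 82 to 108 of 5449 genes on an array. The arrays carry no counts, so their number limits the precision. Pairs of arrays with identical values were not found (0).

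Transcript levels differed between untreated experiments for most genes, but mostly by little. The limma F test over the 6 group means called 4468 of 5449 genes at a Benjamini-Hochberg adjusted p under 0.05, which is 82% of the genes tested. Of these, 1946 had a range of less than 1.5-fold between the highest and lowest group means. The range reached 2-fold or more for 875 called genes (16.1% of those tested), 4-fold for 105 and 8-fold for 24. The median range was 0.57 on the log2 scale, with quartiles of 0.38 and 0.84, against a median SD within groups of 0.13. The 3 arrays of the highest group all lay above the 3 of the lowest for 5081 genes (93.2%), where the groups were picked by their means. In the median gene 69.4% of the variance over the 18 arrays lay between experiments, and for 4062 genes (74.5%) it was more than 50%. Leaving out the carbofuran controls brought the count of 2-fold genes to 486, and leaving out the dimmest 25% of genes, which reduces the number tested to 4086, brought it to 514.

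By most measures the carbofuran controls stood farthest from the rest. On the first principal component, which held 37.6% of the variance, they scored 24.2 to 27.0, and no other array exceeded 8.70. The pyrimethanil controls lay at the low end of the second component (20.8%), at -21.3 to -16.4. Measured by the median absolute difference over genes, the carbofuran and S-metolachlor controls were farthest apart (0.31 on the log2 scale, with 416 genes at least 2-fold apart). The carbofuran and MCPA-ME controls were nearer (0.20 and 113 genes) than, for example, the alachlor and pyrimethanil controls (0.21 and 258 genes). The diuron and S-metolachlor controls were closest (0.16 and 101 genes), and the alachlor and diuron controls had the fewest genes 2-fold apart, 52. Of the 875 genes with a 2-fold range, 256 were highest and 275 lowest in the carbofuran controls, while 23 were highest and 83 lowest in the MCPA-ME controls.

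**Figure D1:**
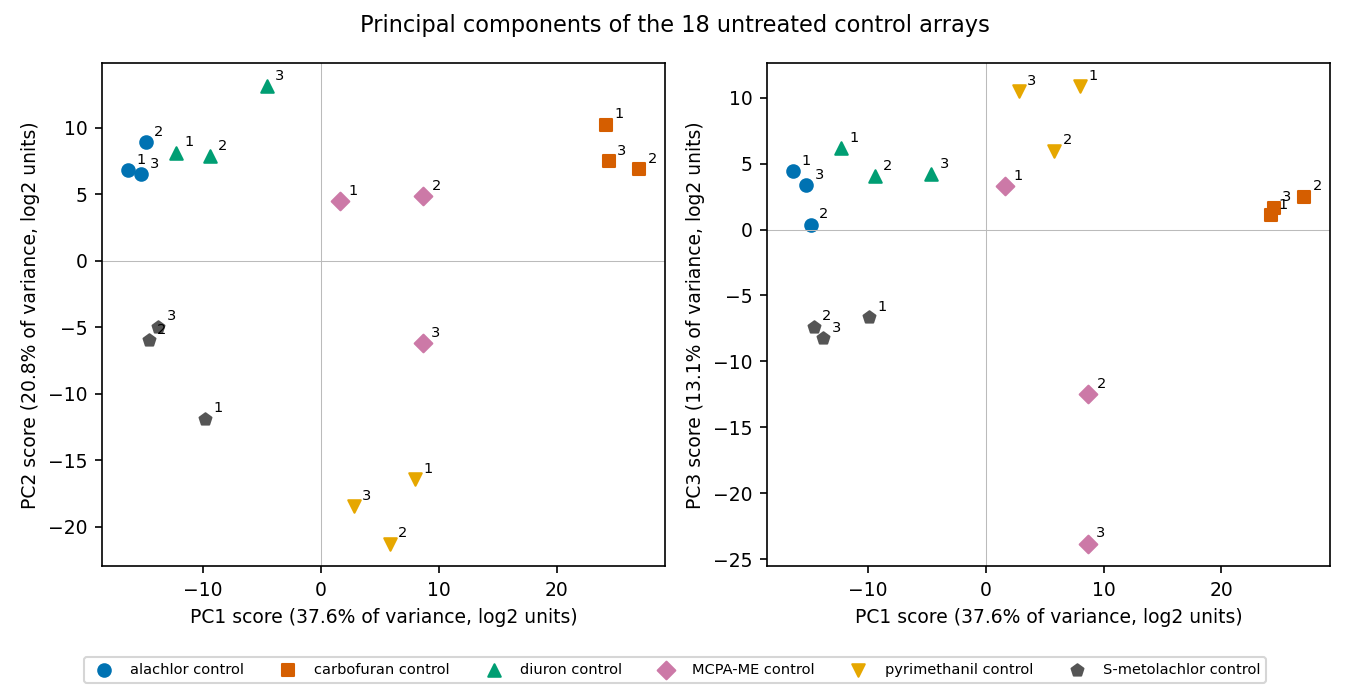
Scores of the 18 untreated control arrays on principal components 1 and 2 (left) and 1 and 3 (right), in log2 units, with colour and shape for the experiment and the replicate number beside each point. The 3 carbofuran controls score 24.2 to 27.0 on component 1, and the MCPA-ME controls spread from 3.30 to -23.8 on component 3.

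Cytosolic ribosomal proteins and glycolytic genes were the lists with the largest shares of steady genes. A gene was called steady where its group means spanned no more than 0.25 on the log2 scale and its SD over the 18 arrays was under 0.15, a description with no test, and 557 genes (10.2%) met this. Of 127 cytosolic ribosomal proteins 116 were steady, with a median range of 0.12 and none (0) at 2-fold, and 59 passed the F test. The same held for 10 of 15 genes of glycolysis and fermentation, 10 of 19 cytosolic aminoacyl-tRNA synthetases, 8 of 15 subunits of the vacuolar ATPase, 4 of 9 core histones and 10 of 23 purine synthesis genes. Other parts of protein synthesis varied more, with 10 of 29 translation factors, 3 of 73 mitochondrial ribosomal proteins and 0 of 107 ribosome biogenesis genes steady. RPS3, a protein of the small ribosomal subunit, had the smallest SD named here: its lowest, median and highest intensities were 27630, 28784 and 29243. TPI1, the glycolytic triose phosphate isomerase, ran from 30218 to 32043, and GPM1, phosphoglycerate mutase, from 31038 to 33199. All 3 are near the top of the scale, on which the highest intensity was 39732.

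Brightness went with steadiness above a mean log2 of 7. Among 243 genes with a mean log2 of 14 or more, 194 were steady, whereas 363 of 5206 dimmer genes were. In those brightest genes the median range was 0.15 and 0% reached 2-fold, against a median range of 0.62 for genes with a mean log2 of 9 to 11. Of 342 genes with a mean log2 of 5 to 7, 20.8% were steady, against 1.52% of those at 7 to 9. The steady genes include 44 that were under the floor of 32 on all 18 arrays, which are level by construction. Whether the upper end of the scale narrows the range of bright genes was not tested. Below that end, HEM12, uroporphyrinogen decarboxylase of heme synthesis, ran from 2933 to 3722 with no group apart (limma F test adjusted p = 0.68). CDC10, a septin of the bud neck, ran from 5308 to 6626 (adjusted p = 0.146), and SOP4, a membrane protein of the endoplasmic reticulum, from 6542 to 7850 (adjusted p = 0.17). A p over the threshold does not show equal levels, and the widths of these ranges are what bears on steadiness. Without the carbofuran controls 845 genes met the steady rule.

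Genes in common use as measurement references were not all steady. Of 17 measured, 8 were steady (47.1%, against 10.2% of all genes) and 8 passed the F test (47.1%, against 82% of all genes). ACT1, actin, ran from 25191 to 28655 and differed by a range of 0.16 (limma F test adjusted p = 0.00643, but 0.098 after median centring of the arrays). TAF10, a subunit of TFIID, ran from 1461 to 2225 and ALG9, a mannosyltransferase, from 3524 to 6522, and neither passed (adjusted p = 0.127 and 0.405). UBC6, a ubiquitin-conjugating enzyme, read 3382, 3488 and 3293 in the carbofuran controls and 1549 to 2906 in the other 15 arrays. TFC1, a subunit of TFIIIC, read 2146, 2017 and 1904 in the S-metolachlor controls and 932 to 1787 elsewhere. For both genes the 3 arrays lay above all others, and the ranges of 2.01-fold and 1.82-fold passed the F test (adjusted p = 1.55e-05 and 3.2e-05).

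**Figure D2:**
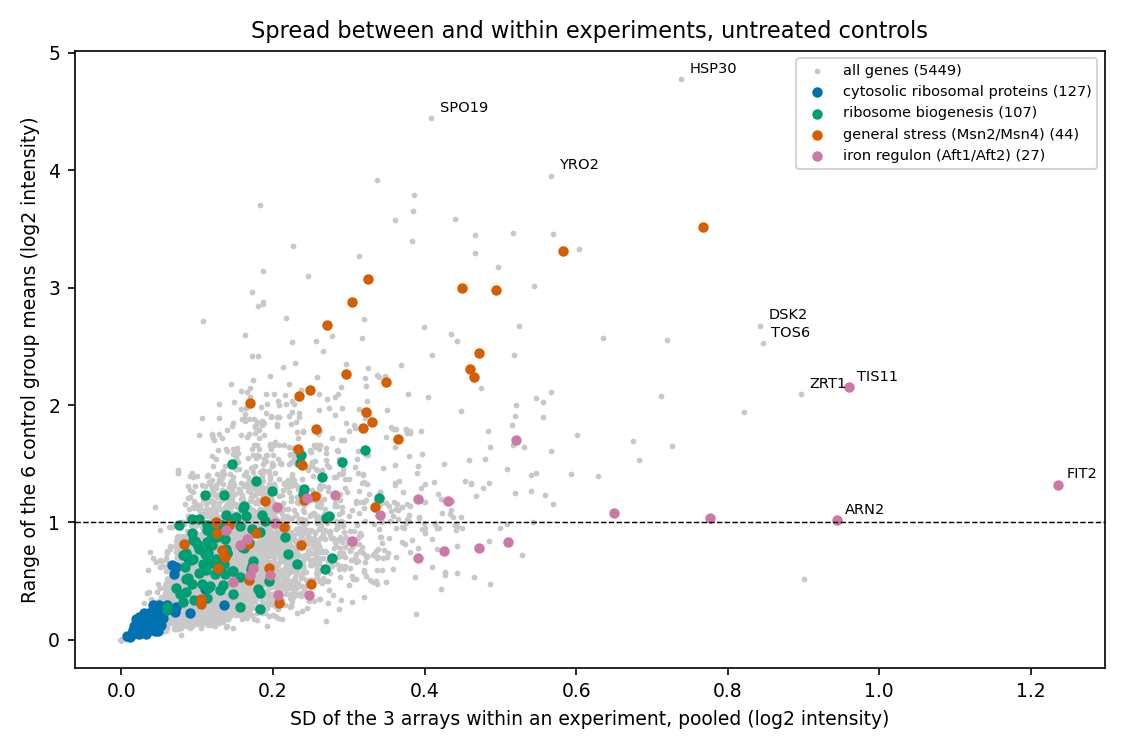
Range of the 6 control group means (y axis, log2) against the pooled SD within groups (x axis, log2) for each of 5449 genes, with 4 gene lists coloured. Cytosolic ribosomal proteins sit at the bottom (median range 0.12), general stress genes at the top (median 1.36), and the iron regulon to the right (median SD 0.30).

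The genes with the largest ranges between untreated experiments included stress genes of the plasma membrane, a sporulation gene and genes linked to invasive growth. HSP30, a membrane protein induced by acid and heat that restrains the proton pump Pma1, had the largest range, 27.5-fold (limma F test adjusted p = 1.09e-05). It read 289, 307 and 298 in the alachlor controls, 362, 637 and 233 in the diuron controls and 574, 1260 and 1033 in the carbofuran controls. It read 1451, 2519 and 7273 in the MCPA-ME controls, 5825, 6759 and 13913 in the pyrimethanil controls and 14099, 6006 and 5620 in the S-metolachlor controls. Every array of the last 3 groups was thus above every array of the first 3. YRO2, a membrane protein of the same family, read 8418, 3997 and 4212 in the S-metolachlor controls and 271, 401 and 350 in the carbofuran controls, a 15.5-fold range (adjusted p = 1.29e-05). PMA1 itself ran from 17191 to 23609, with a range of 0.35 on the log2 scale (adjusted p = 0.000685).

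SPO19, known as a gene of spore wall formation, was also among the most variable. Its intensities were 775, 775 and 685 in the carbofuran controls, 813, 666 and 575 in the MCPA-ME controls and 39.1, 17.4 and 16.2 in the S-metolachlor controls. The S-metolachlor arrays lay below the other 15, which ran from 113 to 813, and the range was at least 21.7-fold, since 2 of the 3 S-metolachlor values were under the floor of 32 (limma F test adjusted p = 6.56e-07). With a floor of 100 in place of 32 its range fell from 4.44 to 2.90 on the log2 scale. YGR035C, a gene of unknown function induced through drug-resistance factors, read 5938, 7094 and 7677 in the MCPA-ME controls and 376, 439 and 568 in the S-metolachlor controls, a 15.1-fold range (adjusted p = 3.18e-07). DIA1, linked to invasive growth, read 4926, 4963 and 5809 in the pyrimethanil controls and 405, 368 and 363 in the alachlor controls, a 13.8-fold range (adjusted p = 1.17e-06). MGA1, a heat-shock-factor-like regulator of filamentous growth, was likewise high in the pyrimethanil controls (817, 846 and 586) and low in the alachlor controls (53.2, 55.3 and 68.5), a 12.6-fold range. For DIA1 and MGA1 the alachlor arrays lay below and the pyrimethanil arrays above all others, which a rule that named them required.

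**Figure D3:**
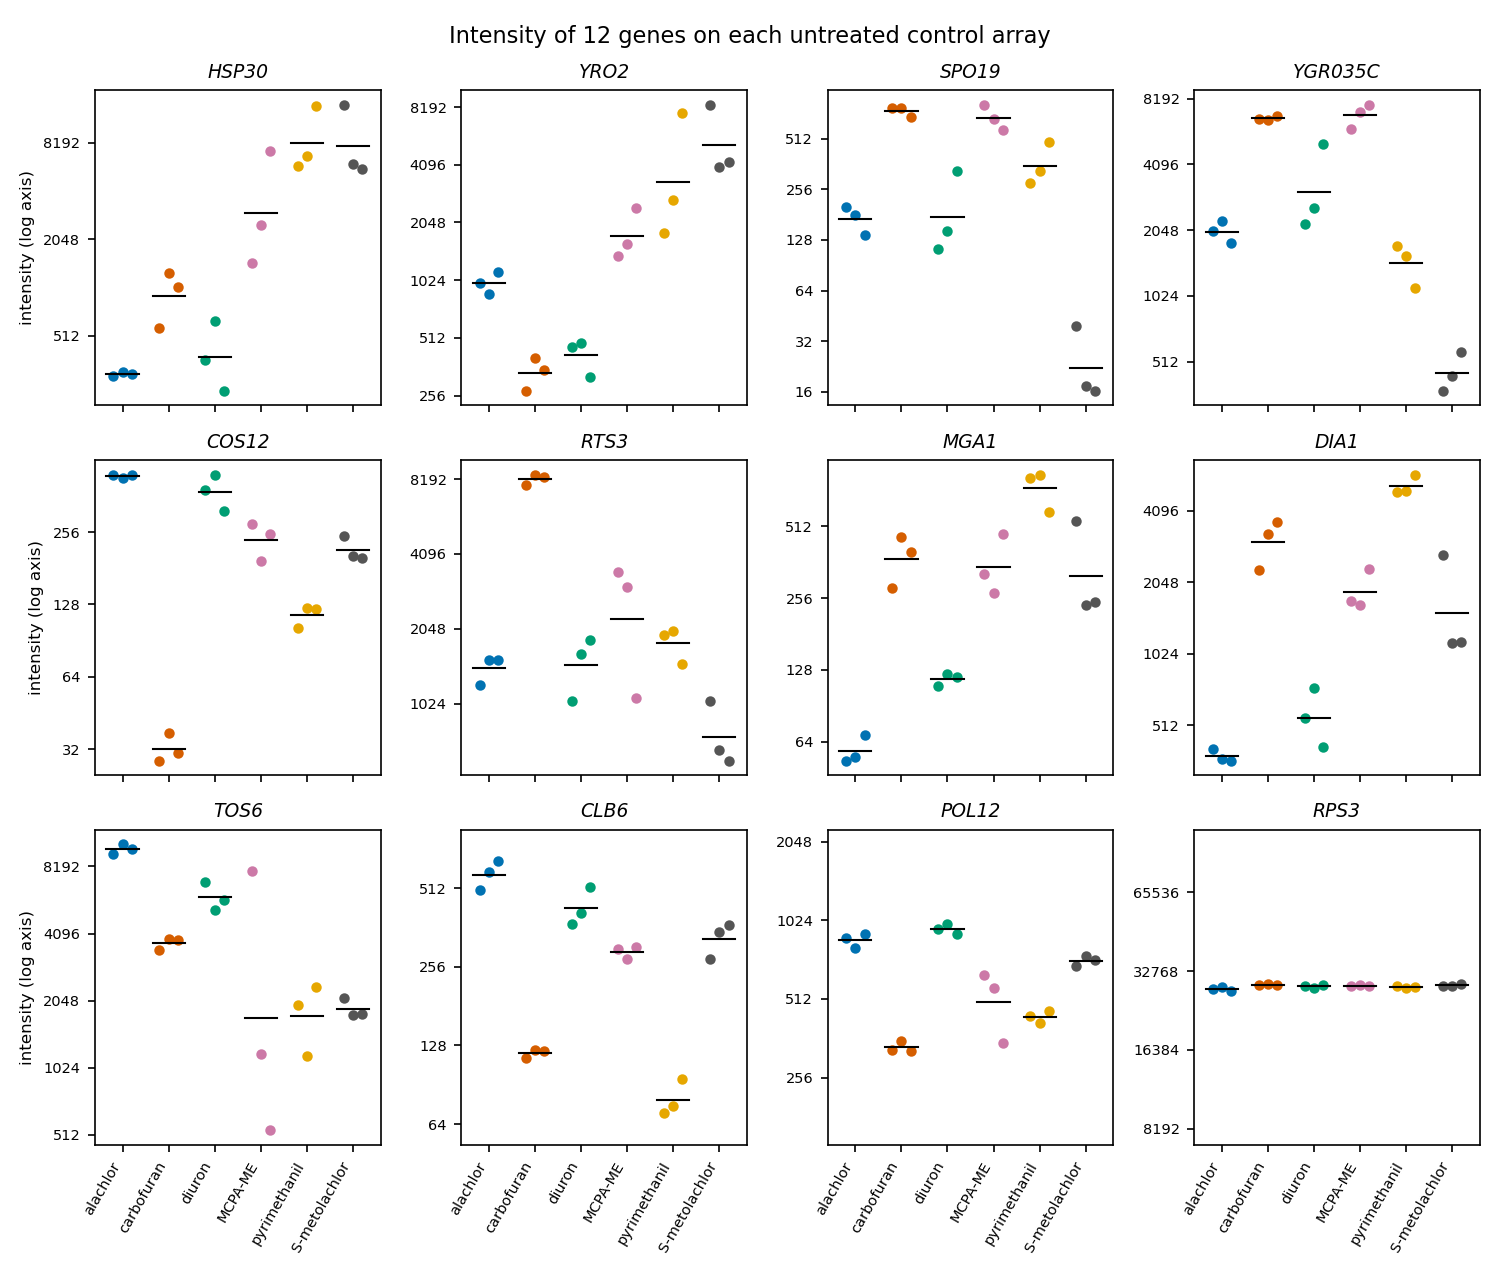
Intensity of 12 genes on each of the 18 untreated control arrays (log axis, each panel on its own scale), with a point for each array and a bar for the geometric mean of its group. HSP30 spans a 27.5-fold range of group means, and the 3 carbofuran points stand apart for COS12 and RTS3, whereas RPS3 is level.

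In the carbofuran controls, sporulation genes, ribosome biogenesis genes and proteasome subunits were high, and single genes such as COS12, MYO1 and ASF1 were low. Against the mean of the other 5 controls, 1565 genes were higher (28.7%) and 1519 lower (27.9%) in the limma contrast. The 3 arrays lay above all 15 others for 646 genes (11.9%) and below them for 464 (8.52%). The balance of higher and lower calls was 1536 to 1572 after quantile normalization and 1516 to 1559 after median centring. RTS3, a putative phosphatase component, read 7783, 8542 and 8370, above a range of 605 to 3473 elsewhere, and was higher by 2.51 ± 0.28 (SE) on the log2 scale (adjusted p = 6e-06). SPS1, a kinase of spore wall formation, read 1198, 1064 and 970 against 96.2 to 628, a difference of 2.10 ± 0.14 (adjusted p = 6.7e-08). CDA1, a chitin deacetylase of the spore wall, read 430, 423 and 388 against 46.7 to 177 (2.37 ± 0.15, adjusted p = 4.9e-08). For all 3 genes the carbofuran arrays stood clear of the rest. Here and below, this was a condition for naming a gene for a contrast, so it is not a separate result for such genes. CDA1 is dim elsewhere, and a floor of 100 took its range over the groups from 3.10 to 2.05.

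On the low side of the carbofuran controls stood COS12, of a family involved in the turnover of membrane proteins. It read 28.6, 37.3 and 30.8 there and 102 to 444 elsewhere, a difference of -2.89 ± 0.11 on the log2 scale (adjusted p = 1e-09), or -1.32 with a floor of 100. Since 2 of the 3 arrays were under the floor of 32, the floor sets this difference and its SE, and the size is a lower bound. MYO1, the myosin of the cytokinetic ring, read 225, 154 and 217 against 473 to 1098 (-1.81 ± 0.12, adjusted p = 6.9e-08). ASF1, a histone chaperone, read 162, 141 and 168 against 246 to 910 (-1.76 ± 0.16, adjusted p = 1.1e-06). In each case the groups did not overlap, as the naming rule required. By lists, 11 of 25 meiosis and sporulation genes were higher and 2 lower, 59 of 107 ribosome biogenesis genes were higher and 24 lower, 23 of 32 proteasome subunits higher and 1 lower, and 42 of 73 mitochondrial ribosomal proteins higher and 8 lower.

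The alachlor controls had high levels of replication, arginine and sulfur genes and low levels of ribosome biogenesis genes. Here 1277 genes were higher (23.4%) and 947 lower (17.4%), and the 3 arrays lay beyond all others for 309 (5.67%) and 133 (2.44%). The excess of higher calls was absent after rescaling, with 1103 higher and 1090 lower after quantile normalization and 1047 and 1080 after median centring. The count of higher genes was 822 without alachlor replicate 1 and 832 without replicate 3. Of 29 genes of G1/S and replication, 24 were higher and 0 lower, with a median difference of 0.41 on the log2 scale. RNR1, the large subunit of ribonucleotide reductase, read 5994, 5167 and 5748 in these controls and 2106 to 5618 in the others, overlapping the diuron arrays. In bulk RNA, more cells in a phase and more RNA per cell in that phase cannot be told apart. Of 107 ribosome biogenesis genes, 0 were higher and 63 lower, with a median difference of -0.25.

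Arginine genes were higher in the alachlor controls for 10 of 13 members and lower for 0. ARG3, ornithine carbamoyltransferase, read 14239, 14339 and 14825 there, 4894, 5905 and 5703 in the pyrimethanil controls and 7723, 7848 and 7356 in the carbofuran controls. The alachlor arrays were at the top, within reach of the highest MCPA-ME array at 14417, and the difference from the other 5 controls was 0.57 ± 0.06 (adjusted p = 2.5e-05). CPA1, of carbamoyl phosphate synthesis, read 17051, 17246 and 17760, above all 15 others at 11177 to 17031. Of 32 sulfur and methionine genes 17 were higher and 1 lower. MET28, a cofactor of Met4, read 159, 187 and 167 against 23.8 to 88.0, a difference of 1.66 ± 0.09 (adjusted p = 5.9e-08), or 0.77 with a floor of 100. MUP1, the high-affinity methionine permease, read 6287, 4546 and 6177, overlapping the others at 2236 to 5102.

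Further genes set the alachlor controls apart. HXT4, a glucose transporter, read 3487, 2600 and 3297, below all others at 6196 to 13342, and differed by -1.52 ± 0.09 (adjusted p = 1.9e-07). In its list of 21 hexose transporters and glucose sensors, 2 were higher and 11 lower. STP4, a zinc finger protein, read 1454, 1273 and 1298 against 2620 to 8430 (-1.99 ± 0.10, adjusted p = 5.5e-08). TOS6, a cell wall protein, read 9323, 10306 and 9801 against 535 to 7796, and CAR2, ornithine aminotransferase of arginine breakdown, read 1120, 1241 and 1105 against 91.4 to 779. Both lay above all others, as the naming rule required, and both spread widely among the MCPA-ME controls, as described further on. The difference of DSK2, a ubiquitin receptor, passed with all arrays but not after leaving out any 1 alachlor array (adjusted p = 0.0683 to 0.0877).

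The diuron controls were marked by low stress genes. Of 44 general stress genes, targets of Msn2 and Msn4, 1 was higher and 35 lower, with a median difference of -0.88 on the log2 scale. Over all genes 634 were higher (11.6%) and 832 lower (15.3%), and the 3 arrays lay beyond all others for 74 (1.36%) and 180 (3.3%). Leaving out diuron replicate 1, 2 or 3 brought the higher count to 362, 357 and 330, and leaving out replicate 2 brought the lower count to 538. HSP42, a small heat shock protein, read 230, 260 and 143 against 382 to 2602 in the others, a difference of -2.51 ± 0.27 (adjusted p = 4.4e-05). HSP26, of the same class, read 163, 186 and 157 against 337 to 745 (-1.52 ± 0.10, adjusted p = 2.1e-06). CTT1, cytosolic catalase, read 153, 196 and 174 against 246 to 894 (-1.17 ± 0.19, adjusted p = 0.00077). The diuron arrays lay below all others for these 3 genes, which the naming rule required of HSP42 only. SSA4, an Hsp70 that answers heat, ran only from 498 to 700 over all 18 arrays.

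Replication and ribosome biogenesis genes were on the high side in the diuron controls. In the replication list 15 of 29 were higher and 1 lower, and in the ribosome biogenesis list 46 of 107 were higher and 1 lower. POL12, a subunit of DNA polymerase alpha, read 944, 994 and 908 against 323 to 907, a difference of 0.82 ± 0.12 (adjusted p = 0.00037), and the next arrays below belonged to the alachlor controls. CLN2, a G1 cyclin, read 2160, 2635 and 2663 against 759 to 1950 (0.80 ± 0.19, adjusted p = 0.007). Its F test over all groups no longer passed without diuron replicate 2 or 3 (adjusted p = 0.0984 and 0.102). Of 35 genes of the respiratory chain and ATP synthase 1 was higher and 16 lower.

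In the pyrimethanil controls stress and cell wall genes were high, and genes of both G1/S and mitosis were low. The contrast called 1140 genes higher (20.9%) and 1023 lower (18.8%), with the 3 arrays beyond all others for 316 (5.8%) and 233 (4.28%). After quantile normalization 995 were higher and 1187 lower. General stress genes were higher for 30 of 44 members and lower for 0, with a median difference of 0.58. Cell wall genes were higher for 25 of 43 and lower for 1. CRH1, a transglycosylase that links chitin to glucan, read 8206, 7708 and 7957 against 3352 to 6074, a difference of 0.74 ± 0.09 (adjusted p = 3.6e-05). CMK2, a calmodulin-dependent kinase, read 9666, 9286 and 10986 against 858 to 7674 (2.07 ± 0.23, adjusted p = 1.5e-05). Both genes were above every other array, which the naming rule required of CMK2 only.

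Cell cycle genes showed the opposite side of the pyrimethanil controls. In the G1/S list 1 of 29 was higher and 19 lower, and in the mitosis list 0 of 18 were higher and 15 lower. CLB6, an S-phase cyclin, read 70.4, 74.8 and 95.01 against 115 to 649, with the carbofuran controls next at 115, 123 and 122 and the alachlor controls highest at 504, 588 and 649. Its difference was -1.96 ± 0.11 (adjusted p = 9.4e-08). SWI5, a transcription factor made in mitosis, read 611, 552 and 659 against 857 to 1424 (-0.84 ± 0.12, adjusted p = 0.00015). YOX1, a transcriptional repressor, read 495, 536 and 601 against 806 to 2327 (-1.31 ± 0.11, adjusted p = 1.7e-06). Arginine genes were lower for 8 of 13 and higher for 0, with ARG3 at its lowest in these controls.

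The S-metolachlor controls had low ribosome biogenesis genes and high levels of several membrane stress genes. In all, 1049 genes were higher (19.3%) and 977 lower (17.9%), and the 3 arrays lay beyond all others for 159 (2.92%) and 177 (3.25%). Without S-metolachlor replicate 2 the higher count was 652, and the balance was 997 higher to 1009 lower after median centring and 842 to 874 with all 36 arrays in the fit. Ribosome biogenesis genes were higher for 3 of 107 and lower for 60, with a median difference of -0.26. RCL1, an endonuclease-like ribosome assembly factor, read 1756, 1685 and 2030 against 2578 to 4680, a difference of -0.89 ± 0.07 (adjusted p = 2.6e-06). DBP8, a helicase of the same process, read 958, 976 and 1136, overlapping the alachlor arrays at 1133 to 1303 and far under the carbofuran arrays at 2735 to 2972. MPC3, a subunit of the mitochondrial pyruvate carrier, read 321, 314 and 301 against 589 to 3836 (-2.29 ± 0.21, adjusted p = 7.4e-06). SPS1 was low as well (96.2, 118 and 101 against 146 to 1198), and like SPO19 it was lowest in the S-metolachlor and highest in the carbofuran controls.

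Among 22 genes of plasma membrane stress and acid, 14 were higher and 2 lower in the pyrimethanil controls. Of the same genes 12 were higher and 4 lower in the S-metolachlor controls. WSC4, a stress sensor, read 1066, 1727 and 1317 against 363 to 1017, a difference of 1.24 ± 0.14 (adjusted p = 2.3e-05). PIC2, a mitochondrial carrier, read 7341, 5995 and 5669 against 1008 to 5163 (1.27 ± 0.17, adjusted p = 0.0001). Both lay above all others, as the naming rule required. PDR12, the pump for weak acid anions, was high in the S-metolachlor (5530, 6653 and 6524) and MCPA-ME controls (8854, 6995 and 6321). It was lowest in the carbofuran controls (2373, 2433 and 2370), and its range of 3.06-fold passed the F test (adjusted p = 1.42e-07).

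The MCPA-ME controls had the fewest genes at either extreme and the widest spread among their own arrays. The contrast called 503 genes higher (9.23%) and 722 lower (13.3%), or 41.1% of the calls higher, and this split turned to 722 higher and 507 lower (58.7%) after quantile normalization and to 680 and 530 (56.2%) after median centring. The 3 arrays lay above all others for 16 genes (0.294%) and below for 44 (0.807%). Without MCPA-ME replicate 1 the lower count was 1192, without replicate 2 the counts were 321 and 439, and without replicate 3 they were 167 and 166. Their residual SD over all genes was 0.26 on the log2 scale, against 0.12 to 0.19 in the other 5 groups.

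Mating and respiration genes were on the high side in the MCPA-ME controls. Of 24 genes of pheromone response and fusion 8 were higher and 0 lower, and of 7 genes specific to mating type a 5 were higher and 0 lower. FUS1, needed for cell fusion in mating, read 2388, 2802 and 2742 against 960 to 2223 (0.72 ± 0.15, adjusted p = 0.0076, or 0.0519 without MCPA-ME replicate 3). KAR4, a transcription factor of nuclear fusion, read 1424, 1759 and 1835 against 715 to 1249 (0.63 ± 0.09, adjusted p = 0.0012). HSP12, a membrane-stabilizing stress protein, read 1651, 2431 and 2815 against 447 to 1561 (1.21 ± 0.14, adjusted p = 0.00024). All 3 lay above the other arrays, as the naming rule required. Of 35 genes of the respiratory chain and ATP synthase 18 were higher and 1 lower. Array 3 was the highest in these: 20 of the 35 had their highest value of all 18 arrays there, as did 6.23% of all genes. The median deviation of the list was 0.29 on array 3, against 0.12 and 0.09 on arrays 1 and 2. ECM29, a proteasome adaptor, read 777, 676 and 607 against 800 to 1347 (-0.71 ± 0.09, adjusted p = 0.0005), and GSH1, the first enzyme of glutathione synthesis, read 1410, 1108 and 892 against 1413 to 2463 (-0.70 ± 0.12, adjusted p = 0.0019).

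Set side by side, the lists showed which functions were in motion among untreated cultures. General stress genes had the widest median range of the lists named here, 1.36 on the log2 scale, with 27 of 44 members called at 2-fold or more, against 16.1% of all genes. Meiosis and sporulation genes followed with a median range of 1.08 and 13 of 25 members at 2-fold. Galactose and maltose genes (7 of 13), drug-resistance genes under Pdr1 and Pdr3 (10 of 19) and hexose transporters (10 of 21) also had members at 2-fold, and the first 2 of these lists had median ranges of 1.05 and 1.03. In G1/S and replication 9 of 29 members reached 2-fold, in ribosome biogenesis 25 of 107, in cell wall 12 of 43 and in sulfur assimilation 8 of 32. Respiratory chain genes (1 of 35), TCA cycle genes (0 of 16) and ergosterol genes (1 of 26) rarely did, with median ranges of 0.43, 0.46 and 0.38. Some genes stand on more than 1 list.

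**Figure D4:**
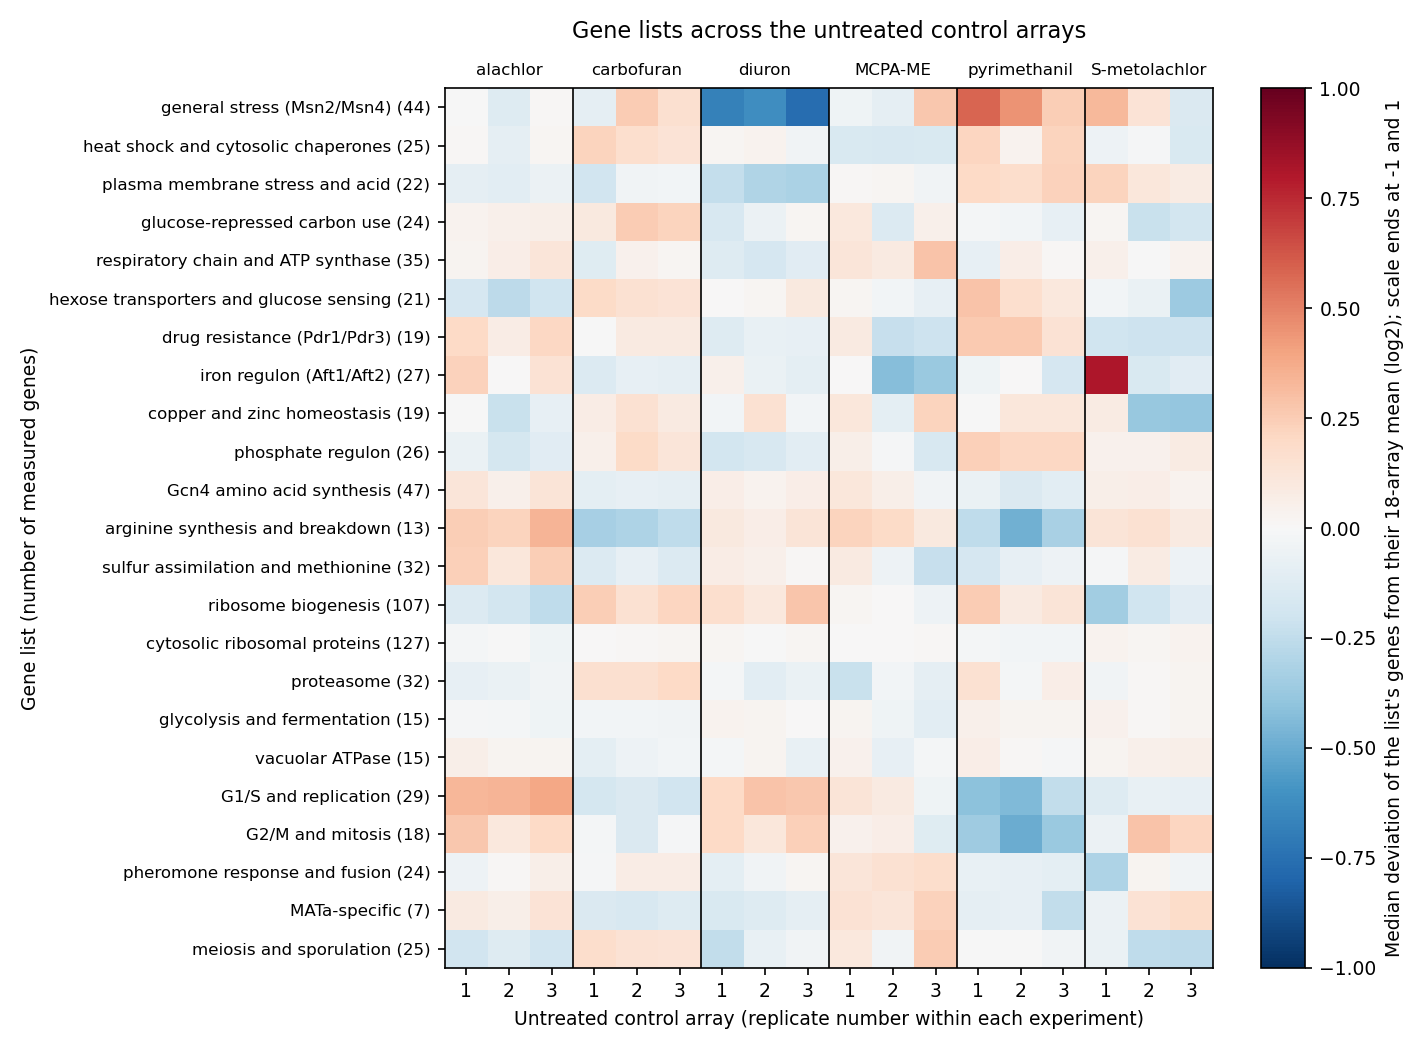
Median deviation of each gene list from its mean over the 18 arrays (colour, log2), with lists in rows and the untreated control arrays in columns grouped by experiment. General stress genes are low on all 3 diuron arrays and high on all 3 pyrimethanil arrays, and iron genes are highest on S-metolachlor array 1.

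Genes that varied together were described by grouping the 875 genes with a 2-fold range into 6 clusters by the correlation of their 6 group means. The clusters are made from the values themselves and were not tested. The first, of 308 genes, was low in the carbofuran controls (median deviation -0.69) and high in the alachlor controls (0.39), and held COS12, CLB6, ASF1, MYO1 and 15 of the 107 ribosome biogenesis genes, of which 9 others were in the second cluster. The second, of 248 genes, was high in the carbofuran controls (0.72) and low in the S-metolachlor controls (-0.51), and held SPO19, YGR035C, MPC3, RTS3, SPS1, CDA1 and 10 of the 25 sporulation genes. The third, of 230 genes, was high in the pyrimethanil (0.77) and low in the diuron controls (-0.50), and held HSP30, YRO2, DIA1, MGA1 and 23 of the 44 general stress genes. A cluster of 72 genes was high in the alachlor controls (0.60) and low in the pyrimethanil (-0.53) and MCPA-ME controls (-0.42). It held DSK2, CAR2 and TOS6. Of its genes, 36 were at least 2-fold higher on MCPA-ME array 1 than the mean of the other MCPA-ME arrays, as described below. For those 36 the MCPA-ME group mean joins arrays that differ widely. The remaining clusters held 10 genes, among them HSP12, and 7 genes, among them WSC4 and PDR12.

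The closest partners of the most variable genes were found by Pearson r over the 18 arrays, which share their experiments and are not independent points. For HSP30 they were COM2, a zinc finger transcription factor (r = 0.94), and EGO4 (r = 0.92). For SPO19 they were REC102, a protein of meiotic recombination (r = 0.97), and CTA1, the peroxisomal catalase (r = 0.97). REC102 read 255, 270 and 245 in the carbofuran controls and 69.3, 62.0 and 64.4 in the S-metolachlor controls, and so followed SPO19 at a lower range of 3.94-fold. CTA1 read 269, 232 and 248 against 74.3, 84.2 and 84.9 in the same groups. For YGR035C the partners were RTP1, which takes part in the nuclear import of RNA polymerase II (r = 0.97), and RCL1 (r = 0.95), and for YRO2 the first was YER053C-A (r = 0.93).

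Several metal uptake genes varied widely between the arrays of 1 experiment. On S-metolachlor control array 1, 62 genes were at least 2-fold higher than the mean of arrays 2 and 3, and 1 was lower. FIT2, a cell wall mannoprotein that retains iron siderophores, read 21007 on array 1 and 554 and 610 on arrays 2 and 3, or 36.1-fold higher. ARN2, a siderophore transporter, read 6517 against 411 and 419 (15.7-fold). TIS11, which destabilizes mRNAs of iron-using proteins, read 3181 against 218 and 296 (12.5-fold). ZRT1, the high-affinity zinc transporter, read 25336 against 2439 and 2779 (9.73-fold). In the iron list 13 of 27 genes were at least 2-fold higher on array 1, and 20 of 27 had their highest value of all 18 arrays there, as did 6.72% of all genes. FIT2, ARN2 and TIS11 did not pass the F test over groups (adjusted p = 0.623, 0.777 and 0.111). ZRT1 was also high on diuron array 2 (15735) and MCPA-ME array 3 (17672). The 1 lower gene was AGA1, an anchor of the mating agglutinin, at 2053 against 4373 and 4163.

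A second set of genes separated the MCPA-ME control arrays from each other. On array 1, 107 genes were at least 2-fold higher than the mean of arrays 2 and 3, and 101 of them were lower on array 3 than on array 2. Array 3 also had the lowest median intensity of the 18 arrays, 1358 against 1427 on array 2. The share of all genes lower on array 3 than on array 2 was not taken. DSK2 read 3131, 333 and 260 on arrays 1, 2 and 3. TOS6 read 7796, 1181 and 535, and CAR2 read 687, 121 and 91.4. ILV6, the regulatory subunit of acetolactate synthase in branched-chain amino acid synthesis, read 16288, 5062 and 2694. In the alachlor controls the same 4 genes were above all other arrays, with ILV6 at 18579, 18869 and 18025. Of the 107 genes, 77 (72%) had their highest group mean in the alachlor controls, as did 22.3% of all genes. In the pyrimethanil controls 99 of the 107 (92.5%) were lowest on array 2, as were 37.2% of all genes. They had no shared list in common, since 24 of 107 were on any list, and their median coding length was 1227 bases, near the 1236 of all genes. The genes were chosen by their values on these arrays, so these shares are descriptions.

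A smaller set ran the other way in the MCPA-ME controls. The 8 genes that were at least 2-fold lower on array 1 were CYC7, EGO4, FMP48, HSP30, HSP42, RGI1, SPI1 and TMA10, several of them stress genes. RGI1, induced in respiratory growth, read 2475, 4300 and 8049 on arrays 1, 2 and 3, and SPI1, a cell wall protein induced by weak acids, read 2094, 3603 and 5781. TMA10, a protein that associates with ribosomes, read 476, 668 and 1605. For these 3 genes array 3 was the highest of its group, where 101 of the 107 genes above were lower than on array 2. In the S-metolachlor controls SPI1 read 4589 on array 1 against 1697 and 1297, and YRO2 8418 against 3997 and 4212. On that array 4 of 44 general stress genes were at least 2-fold higher, as were 62 of all 5449 genes. The median difference of the general stress list there was 0.29 on the log2 scale. The part of these arrays' differences in the group contrasts was measured by leaving both S-metolachlor array 1 and MCPA-ME array 3 out, a choice made after seeing the data. The MCPA-ME contrast then called 191 genes higher and 183 lower.

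**Figure D5:**
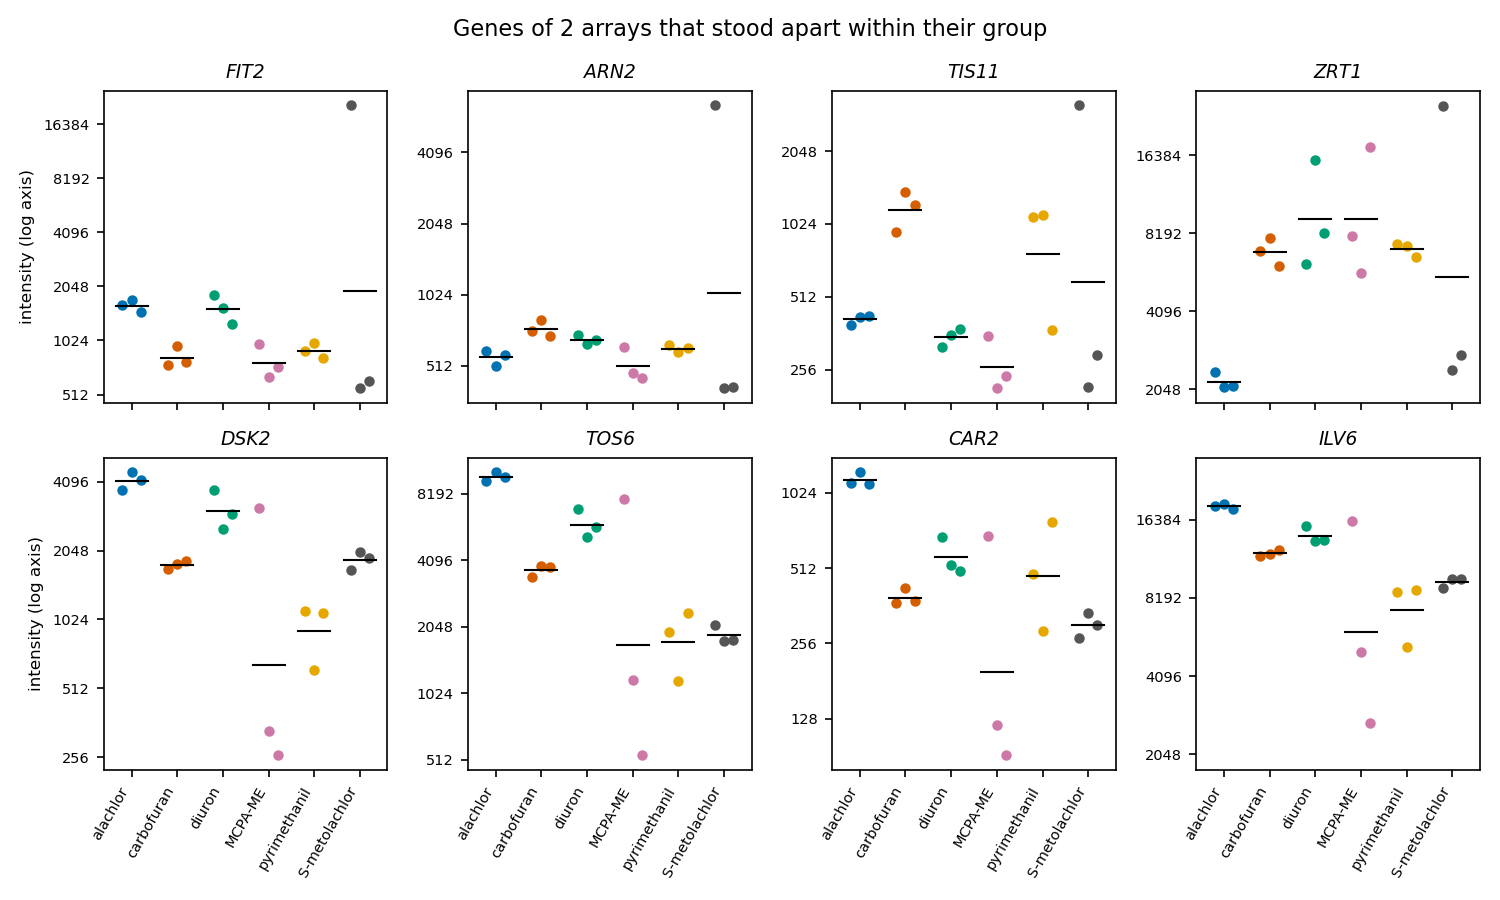
Intensity of 8 genes on each of the 18 untreated control arrays (log axis), with a point for each array and a bar for the geometric mean of its group. FIT2, ARN2, TIS11 and ZRT1 are high on S-metolachlor array 1, and DSK2, TOS6, CAR2 and ILV6 are higher on MCPA-ME array 1 than on arrays 2 and 3.

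The pesticide-treated arrays of the same experiments, which took no part in the fits above, give a further reading of whether an experiment's level was its own. For 574 of the 875 genes with a 2-fold range (65.6%), the experiment with the highest control mean also had the highest mean among the 6 treated groups. The same was true of 1625 of 3593 other called genes (45.2%) and of 369 of 981 genes not called (37.6%). For the lowest experiment the shares were 57.3%, 43.9% and 35.4%. Over the 6 experiments the median r between control and treated means was 0.86, 0.69 and 0.49 for the 3 classes. The pesticides differ between the treated groups as well, and their part in these shares was not tested.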

How the data were processed

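Per the labels' protocols, total RNA came from a hot-phenol extraction and was biotin-labelled through in vitro transcription before being hybridised to Affymetrix Yeast Genome 2.0 arrays. The authors deposited linear intensities, 1 per probe set, made with Affymetrix Expression Console, per the submitters' processing notes. Its version, the summary of probes and the normalization are not given in the sources used. Among 5716 probe sets 5498 had 1 gene in the supplied annotation, 0 several and 218 none; for 47 genes with several probe sets the one with the highest mean over the 18 control arrays was kept, which left 5449 genes. The 119 genes on probe sets that can match several transcripts were tested but not named.

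Intensities were floored at 32, log2 transformed and fitted with limma 3.58.1 in R 4.3.3 to 6 group means (12 residual degrees of freedom). An F test over the groups and 6 contrasts, each group against the mean of the other 5, were adjusted by the Benjamini-Hochberg method over all 5449 genes, and adjusted p under 0.05 was called. The contrasts share arrays and are not independent of each other. The fit was tested on simulated data. Clusters used average linkage on 1 minus Pearson r of the 6 group means.

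Groups came from the titles. The labels call the replicates independent. Replicate numbers did not pair arrays: residuals of 45 same-number pairs correlated at -0.40 to 0.27, and 11 were over 0.1.

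The members and the 62 gene lists were chosen with earlier results of these data known. After values were seen, RPP1, MLP1, SDS22 and HSP30 were taken off lists they did not belong to. Named genes were the 25 largest ranges, the 6 largest changes each way in each contrast with arrays beyond the other 15, the extremes of each list, the 15 steadiest and 15 most variable within groups, the markers and reference genes, the partners by r and the leading cluster genes, besides list members shown as examples. HEM12, SOP4 and CDC10 come from a rule added later for genes below the brightest, and PMA1, AGA1 and CYC7 were named after their values were seen.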

Additional observations from a re-analysis of the deposited data

How the results depend on the processing

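No difference of a gene named for a contrast changed sign (0 reversed) in the alternative fits. These included quantile normalization, median centring, other floors, array weights, trend and robust moderation, all probe sets, all 36 arrays, replicate blocks and leave-one-out fits. Such genes were chosen with their 3 arrays beyond the other 15, so leave-one-out fits and other floors could hardly reverse them. For other named genes the range of group means was followed, which has no sign. Over named genes 12904 values kept their call, 138 gained and 212 lost it, and over lists 3749 counts stayed within 1.5 times and 95 moved. The balance of higher to lower calls did turn under some settings. It turned for alachlor (1047 to 1080, median centring), carbofuran (1536 to 1572 and 1516 to 1559, quantile and median), MCPA-ME (722 to 507 and 680 to 530, the same), pyrimethanil (995 to 1187, quantile, and 1469 to 1475, array weights) and S-metolachlor (997 to 1009, median, and 842 to 874, all 36 arrays), and in some fits without 1 or 2 arrays. Dropping the dimmest 25% of genes gave 514 genes at 2-fold, with fewer tested. Array weights raised the higher and lower counts of every group, among them the diuron higher count to 1078, the S-metolachlor lower count to 1504 and the alachlor higher count to 1913. The cause was not tested. Among alternatives chosen after seeing the data, leaving out S-metolachlor array 1 and MCPA-ME array 3 gave 191 higher and 183 lower genes in the MCPA-ME controls, leaving out genes with a mean log2 of 14 or more gave 363 steady genes, and leaving out the carbofuran controls gave 486 genes at 2-fold and 845 steady genes. With 1 array left out, the F test called 4180 to 4654 genes, of which 838 to 989 reached 2-fold, and 528 to 608 genes were steady. The higher and lower counts then ran from 822 to 1485 and 670 to 1025 for alachlor, 1288 to 1655 and 1284 to 1596 for carbofuran, 330 to 850 and 538 to 933 for diuron, 167 to 673 and 166 to 1192 for MCPA-ME, 832 to 1288 and 738 to 1145 for pyrimethanil, and 652 to 1141 and 703 to 1160 for S-metolachlor; lowest values mostly came from leaving out an array of the group itself. With the replicate number as a block the F test called 4275 genes, 875 of them at 2-fold, and 3 of 18 arrays correlated best with their own number. The 3 arrays per group and the unstated normalization limit all of these, values under the floor have no order, and no shift of all genes by a scaling exceeded 0.0505 on the log2 scale.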

Other observations

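Vitamin and transport genes also differed among untreated cultures. Of 5 genes of pyridoxine synthesis and stationary phase, 3 were higher in the alachlor controls (23.4% of all genes) and 4 in the S-metolachlor controls (19.3%), with 0 lower in either. In the carbofuran controls 4 were lower (27.9% of all genes), as in the pyrimethanil controls (18.8%), with 0 higher in either. Among 7 aryl-alcohol dehydrogenases 5 were higher and 0 lower in the alachlor controls (23.4% of all genes higher), and 5 were lower and 0 higher in the S-metolachlor controls (17.9% lower). Of 26 phosphate regulon genes 13 were higher and 3 lower in the pyrimethanil controls (20.9% of all genes higher). In the alachlor and in the diuron controls 11 were lower and 1 higher (17.4% and 15.3% of all genes lower). Autophagy genes were lower for 16 of 36 members and higher for 0 in the diuron controls (15.3% of all genes lower). Genes of sodium, potassium and osmotic response were higher for 11 of 18 members and lower for 2 in the pyrimethanil controls (20.9% of all genes higher). In the MCPA-ME controls 6 were lower and 0 higher (13.3% of all genes lower).

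Hexose transporter genes differed by member. HXT1, a low-affinity glucose transporter, read 16408, 15978 and 15403 in the pyrimethanil controls, above the other 15 arrays at 9570 to 13402. HXT2, of high affinity, read 21770, 21045 and 21499 there and 11341, 8491 and 8618 in the S-metolachlor controls, a 2.28-fold range (limma F test adjusted p = 1.64e-06).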
